A study of Mus musculus with 8 samples.

Results

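Semaphorins, plexins, neuropilins, Eph receptors and ephrins are the families described here. They were compared between lateral ganglionic eminence (LGE) labelled as Gsx2 knock-out, called null below, and wild-type LGE. The members were taken by name from the deposited table of 12843 genes: semaphorins of classes 3 to 7, class A to D plexins, the neuropilins Nrp1 and Nrp2, the A and B Eph receptors, and the A and B ephrins. This gave 46 genes, 28 of the semaphorin-plexin system (19 semaphorins and 9 receptors) and 18 of the Eph-ephrin system (11 receptors and 7 ephrins). The LGE is the embryonic ventral forebrain swelling that forms the striatum and olfactory bulb interneurons, and Gsx2 is a homeobox transcription factor of its progenitors. Mice were sampled as embryos of stage E12.5, with 4 null libraries of genotype Gsx2EGFP/Gsx2RA and 4 wild-type libraries. The parents each carried 1 copy of Gsx2RA or of Gsx2EGFP beside a wild-type copy, and no other allele or agent is named in the labels. Neither what each allele leaves of Gsx2 nor whether a library held 1 embryo or several is stated, so the p-values speak for the spread among these libraries only.

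Semaphorins are guidance ligands that act through plexins. Class 3 semaphorins are secreted and mostly need a neuropilin as the binding partner of the plexin, classes 4 to 6 are mainly transmembrane proteins that bind plexins directly, and Sema7a is held in the membrane by a lipid anchor. Ephrins are membrane-bound ligands of the Eph receptor tyrosine kinases, with a lipid anchor in the A class and a transmembrane segment in the B class, and signals can run into both touching cells. In the embryonic forebrain both systems steer growing axons and migrating neurons and keep neighbouring cell groups apart.

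Expression is in RPKM (reads scaled to gene length and to library depth), and the column numbers of the libraries are used as their names: 5, 6, 11 and 12 for the null, 1, 2, 7 and 8 for the wild type. Reads in listed genes numbered 16066545 to 18019214 in null libraries and 16031458 to 17512880 in wild-type libraries, and a member had 17 to 12734 reads in a library. Gsx2 RNA itself stood at 50.04, 49.1, 57.6 and 64.2 RPKM in null libraries and 22.1, 21.4, 26.0 and 24.6 RPKM in wild-type libraries, so RNA of the locus was higher in the null and cannot serve to check the genotype labels. GABAergic markers were present and much lower in the null, where 7 of 7 fell. Their summed level was 44.0 to 73.9 RPKM in null libraries and 470 to 562 RPKM in wild-type libraries. Markers of pallial (cortical) glutamatergic neurons, 7 of 7 higher in the null, summed to 422 to 460 RPKM in null libraries and 39.8 to 157 RPKM in wild-type libraries; wild-type library 7 held the 39.8, with 132 to 157 in libraries 1, 2 and 8. Of 7 progenitor markers 4 fell (Sox2, Hes5, Top2a and Mki67) and 1 rose (Vim), with a summed level of 1501 to 1878 RPKM in null libraries and 1595 to 1700 RPKM in wild-type libraries. Of 6 listed markers of neurons of any type 4 rose (Rbfox3, Elavl4, Map2 and Stmn2), with a summed level of 981 to 1151 RPKM in null libraries and 872 to 990 RPKM in wild-type libraries. Over all tested genes 13.8% rose and 14.6% fell. The part of these marker lists in the members' rises and falls was not tested. In whole tissue, fewer cells of a type and less RNA per cell cannot be told apart.

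Over both systems, more members were higher than lower in the null. Of the 42 members tested, 20 rose and 7 fell at an adjusted p under 0.05 (limma, Benjamini-Hochberg over all genes tested), against a background of 28.5% of the 11395 tested genes called in either direction, 13.8% higher and 14.6% lower. The median log2 fold change of tested members was 0.19, beside -0.01 over all genes tested. The other 4 members (Sema3b, Sema3e, Epha2 and Epha8) had a mean under 1 RPKM in each genotype and were not tested, and Sema3g entered only through its null level, so it had to be higher to be counted. With all 46 members in a fit without that limit, 20 rose and 6 fell, against 25.9% of all 12843 genes called in either direction, 12.8% higher and 13.1% lower. The authors' deposited table had 22 members higher and 7 lower at an FDR under 0.05, against 27.6% of its genes. All null libraries lay above all wild-type libraries in 22 of the 46 members and below them in 10. Over all 12843 genes, 29.2% had no overlap between genotypes in either direction. These counts describe the families and were not tested as sets.

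**Figure D1:**
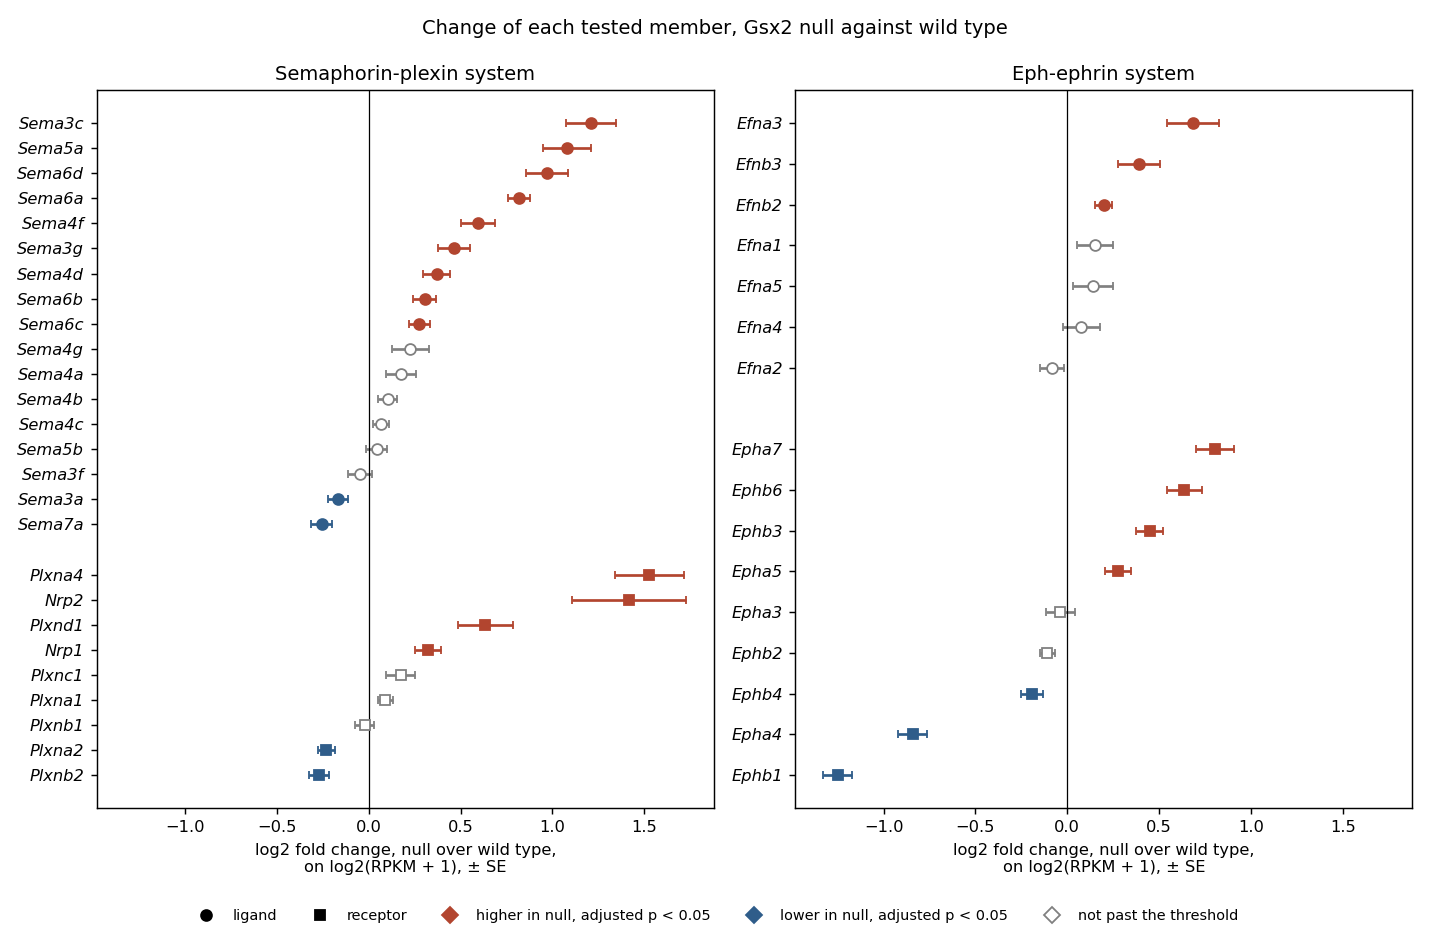
Log2 fold change of each of the 42 tested members, null over wild type, on the scale of log2(RPKM + 1), with its standard error; circles are ligands, squares are receptors, filled red is higher and filled blue is lower at an adjusted p under 0.05, open grey did not pass. Plxna4 (1.53) and Nrp2 (1.42) lie farthest to the right and Ephb1 (-1.25) and Epha4 (-0.84) farthest to the left.

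Among the semaphorins, 9 of 17 tested ligands rose and 2 fell in the null, against 13.8% and 14.6% of all tested genes. The rises were spread over classes 3 to 6: 2 of 4 tested class 3 genes, 2 of 6 in class 4, 1 of 2 in class 5 and 4 of 4 in class 6. Of the class 3 genes, Sema3g was tested only through its null level, and Sema3b and Sema3e were too low to be tested. Summed over the 19 genes, semaphorin RNA was 246 ± 10.9 RPKM in null libraries and 184 ± 10.3 RPKM in wild-type libraries (mean ± SD, n = 4 each).

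The class 6 semaphorins, transmembrane ligands of class A plexins, were higher in the null without exception. Sema6d had 28.9, 31.1, 31.1 and 24.5 RPKM in null libraries, against 16.1, 14.5, 11.1 and 15.7 RPKM in wild-type libraries. The lowest null library stood above the highest wild-type library, and the log2 fold change was 0.97 ± 0.11 (SE; limma adjusted p = 0.000249). Sema6a, a ligand of Plxna2 and Plxna4, had 19.4, 18.8, 16.4 and 18.2 RPKM in null libraries, against 9.87, 10.4, 9.23 and 10.01 RPKM in wild-type libraries. Its wild-type values lay close together and far below every null value, and the log2 fold change of 0.82 ± 0.06 (limma adjusted p = 1.41e-05) had the smallest adjusted p of any semaphorin. Sema6c, the most abundant class 6 gene, had 33.7, 30.1, 31.1 and 32.0 RPKM in null libraries, against 27.1, 27.4, 23.8 and 25.8 RPKM in wild-type libraries (log2 fold change 0.28 ± 0.06, limma adjusted p = 0.00481). Sema6b had 5.88, 5.20, 5.23 and 5.62 RPKM in null libraries, against 4.32, 4.303, 3.86 and 4.51 RPKM in wild-type libraries (0.30 ± 0.06, limma adjusted p = 0.00459). In both the genotypes were separate by a small margin. As a class they summed to 80.3 to 87.8 RPKM in null libraries and 48.0 to 57.3 RPKM in wild-type libraries.

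The class 5 genes encode transmembrane semaphorins with thrombospondin repeats, and they parted. Sema5a had 34.0, 44.9, 33.6 and 29.5 RPKM in null libraries, against 15.5, 18.3, 13.1 and 17.9 RPKM in wild-type libraries. All null libraries were above all wild-type libraries, with library 6 highest, and the log2 fold change was 1.08 ± 0.13 (limma adjusted p = 0.000297; 0.97 without library 6). Library 6 also held the most RNA of mesenchyme markers (4 of 5 listed, 0 past the threshold). Their summed level was 9.96 RPKM in library 6 and 2.93 to 3.17 RPKM in the other null libraries, against 2.70 to 3.34 RPKM in the wild type. Among these markers Lum was at 0.964 RPKM in library 6 and at or near 0 in all other libraries of both genotypes. The part of the mesenchyme markers in the Sema5a value was not tested. Sema5b stood at 29.7 ± 2.04 RPKM in the null and 28.8 ± 1.14 RPKM in the wild type, a log2 difference of 0.04 with a 95% interval of -0.08 to 0.17. By mean level Sema5b was the most abundant semaphorin in the wild type, and Sema5a was in the null. The null range of Sema5a, 29.5 to 44.9 RPKM, overlapped those of Sema6c (30.1 to 33.7 RPKM), Sema5b (27.7 to 32.5 RPKM) and Sema6d (24.5 to 31.1 RPKM). Sema5a was above Sema6c in null libraries 5, 6 and 11 and below it in library 12.

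Of the secreted class 3 semaphorins, Sema3c changed most. Sema3c, a ligand that acts through neuropilins and Plxnd1 and draws cortical axons toward it, had 10.6, 11.5, 13.4 and 11.9 RPKM in null libraries, against 4.39, 4.83, 3.21 and 6.07 RPKM in wild-type libraries. The genotypes did not overlap, and the log2 fold change was 1.21 ± 0.14 (limma adjusted p = 0.000206). Sema3g, which signals through Nrp2, was low throughout, at 1.21, 1.65, 1.76 and 1.59 RPKM in null libraries and 0.766, 0.8287, 0.907 and 0.885 RPKM in wild-type libraries (log2 fold change 0.46 ± 0.09, limma adjusted p = 0.00340).

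Sema3a, the classical repellent that binds Nrp1, was slightly lower in the null: 7.67, 8.04, 7.62 and 7.10 RPKM in null libraries and 8.31, 9.12, 8.20 and 8.99 RPKM in wild-type libraries. The ranges did not touch, but the highest null library was only just below the lowest wild-type library. Its log2 fold change of -0.17 ± 0.05 (limma adjusted p = 0.0461) was past the threshold by little; without any 1 of libraries 1, 2, 5, 8, 11 or 12, with all listed genes tested (adjusted p = 0.0501), or under either other scaling of the libraries it was not past it, which leaves Sema7a as the single semaphorin that fell. The authors' deposited table gave Sema3a an edgeR FDR of 0.0613. Sema3f, the Nrp2 ligand, stood at 7.47 ± 0.469 RPKM in the null and 7.77 ± 0.600 RPKM in the wild type (log2 difference -0.05, 95% interval -0.19 to 0.10). Sema3e, a direct ligand of Plxnd1, was low at 0.875 to 0.953 RPKM in null libraries and 0.556 to 0.770 RPKM in wild-type libraries, without overlap. In the fit of all listed genes its adjusted p was 0.0676, while the authors' deposited table gave it an FDR of 0.00953. Sema3b was at 0.756 ± 0.0850 RPKM in the null and 0.725 ± 0.0980 RPKM in the wild type.

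Class 4 semaphorins, many of which bind B plexins, had 2 genes that rose, both of low level, and 4 that did not pass. Sema4f had 3.56, 3.13, 2.90 and 2.81 RPKM in null libraries, against 2.01, 1.78, 1.35 and 1.73 RPKM in wild-type libraries (log2 fold change 0.59 ± 0.09, limma adjusted p = 0.00110). The genotypes were separate. Sema4d, the ligand of Plxnb1, had 3.96, 4.19, 3.83 and 4.10 RPKM in null libraries, against 3.22, 2.82, 2.43 and 3.11 RPKM in wild-type libraries (0.37 ± 0.07, limma adjusted p = 0.00449). The abundant Sema4c, a ligand of Plxnb2, stood at 20.9 ± 0.414 RPKM in the null and 19.9 ± 0.826 RPKM in the wild type (log2 difference 0.07, 95% interval -0.03 to 0.16). Sema4a, Sema4b and Sema4g had log2 differences of 0.17, 0.10 and 0.23, with ranges that overlapped between genotypes and adjusted p of 0.149, 0.170 and 0.124 (limma). Sema4g was higher past the threshold in 2 alternatives, with a term for the set of column numbers (adjusted p = 0.0122, making 10 semaphorins that rose) and in libraries 7, 8, 11 and 12 alone (adjusted p = 0.0311).

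Sema7a, the lipid-anchored semaphorin that binds Plxnc1 and integrins, was lower in the null. It had 9.13, 8.65, 7.96 and 8.60 RPKM in null libraries, against 10.7, 9.67, 10.2 and 11.2 RPKM in wild-type libraries, and the genotypes did not overlap. The log2 fold change was -0.26 ± 0.06 (limma adjusted p = 0.00864). Its receptor Plxnc1 was at 14.3 ± 1.70 RPKM in the null and 12.53 ± 0.743 RPKM in the wild type, with an adjusted p of 0.134 by limma, but 0.0359 without library 6. Plxnc1 was also past the threshold in libraries 7, 8, 11 and 12 alone. The authors' deposited table gave it an edgeR FDR of 0.0285, higher in the null.

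**Figure D2:**
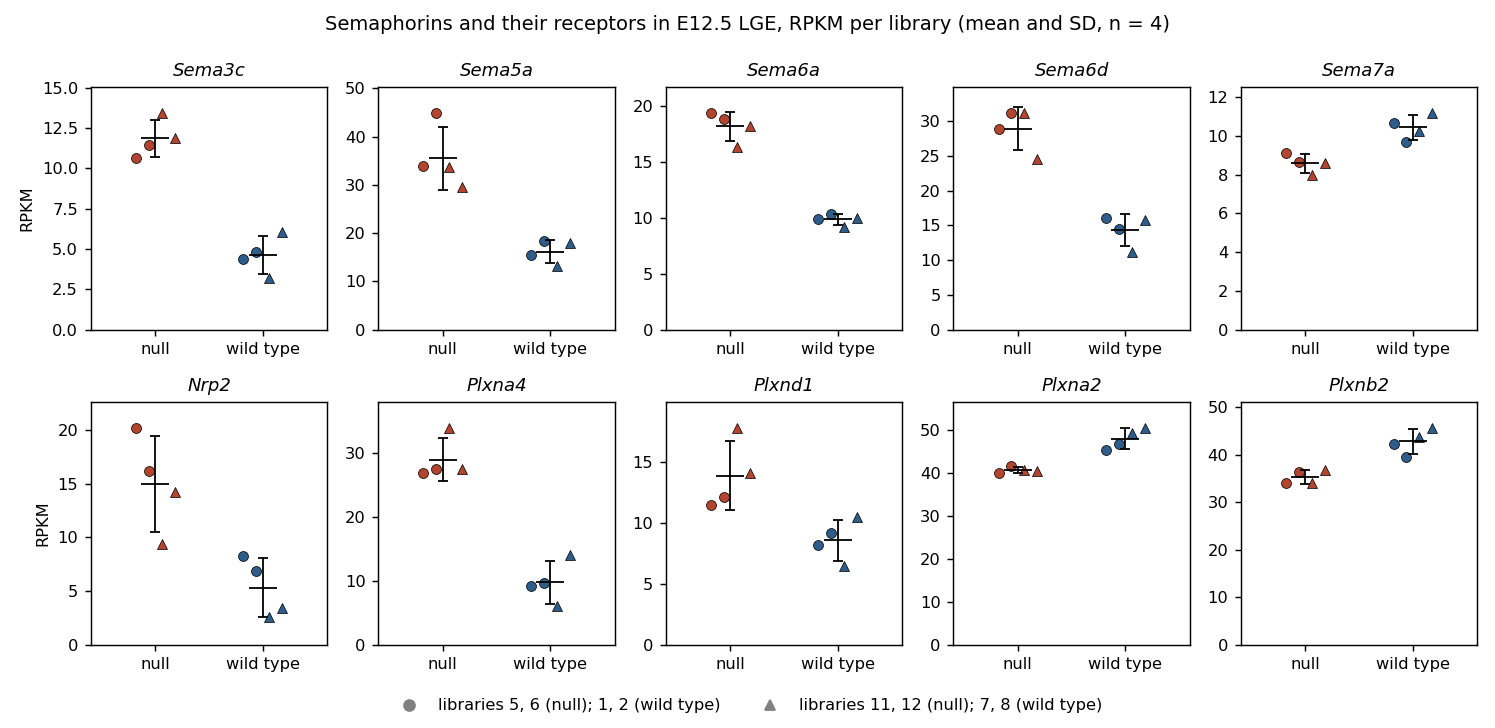
RPKM of 5 semaphorins (top row) and 5 of their receptors (bottom row) in each library, null at the left and wild type at the right of each panel; points are libraries, with circles and triangles for the 2 sets of column numbers, and bars are the mean and SD (n = 4 each). The genotypes do not overlap in any panel, and 29.2% of all 12843 listed genes likewise had no overlap. Nrp2 spreads widely, from 9.42 to 20.2 RPKM in the null and 2.53 to 8.30 RPKM in the wild type.

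On the receptor side, 4 of 9 plexin and neuropilin genes rose and 2 fell, against 13.8% and 14.6% of all tested genes. The 4 that rose were Plxna4, Nrp2, Plxnd1 and Nrp1, and the 2 that fell were Plxna2 and Plxnb2, the most abundant receptors of this system in both genotypes.

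Plxna4, a receptor of Sema6a and, with neuropilins, of class 3 semaphorins, had the largest change of all 42 tested members. It had 26.9, 27.6, 34.0 and 27.6 RPKM in null libraries, against 9.16, 9.70, 5.999 and 14.1 RPKM in wild-type libraries. The lowest null value was far above the highest wild-type value, and the log2 fold change was 1.53 ± 0.19 (limma adjusted p = 0.000341). Plxna2 moved the other way, with 40.0, 41.6, 40.8 and 40.6 RPKM in null libraries and 45.4, 46.8, 49.5 and 50.6 RPKM in wild-type libraries (log2 fold change -0.23 ± 0.05, limma adjusted p = 0.00459). Plxna1 stood at 22.3 ± 0.787 RPKM in the null and 20.9 ± 0.390 RPKM in the wild type (0.09, 95% interval -0.0029 to 0.18). The summed RNA of Plxna1, Plxna2 and Plxna4, the class A plexins among the members, was therefore made up differently. Plxna4 took 29.8 to 35.1% of this summed RPKM in null libraries and 7.86 to 16.4% in wild-type libraries. Plxna2 took 42.2 to 45.9% in null libraries and 59.0 to 64.8% in wild-type libraries. Any class A plexin outside the members is not in this sum.

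Nrp2, the neuropilin that binds Sema3f, Sema3c and Sema3g, had 20.2, 16.2, 9.42 and 14.2 RPKM in null libraries, against 8.30, 6.86, 2.53 and 3.40 RPKM in wild-type libraries. The genotypes did not overlap, but the spread was wide in each, and in each the libraries with the higher column numbers were the lower ones. The log2 fold change was 1.42 ± 0.31 (limma adjusted p = 0.00725). It was 1.16 within libraries 5, 6, 1 and 2 and 1.67 within libraries 11, 12, 7 and 8. Nrp1, which binds Sema3a, changed less, with 5.67, 5.92, 4.74 and 5.59 RPKM in null libraries and 4.49, 4.26, 3.83 and 4.10 RPKM in wild-type libraries (log2 fold change 0.32 ± 0.07, limma adjusted p = 0.00751). Nrp1 overlaps the microRNA gene Mir1903 on the same strand, so reads could fall to either. The ratio of Nrp2 to Nrp1 RPKM was 1.99 to 3.56 in null libraries and 0.66 to 1.85 in wild-type libraries.

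Plxnd1, a receptor of Sema3e and Sema3c that is also prominent in vessel walls, had 11.5, 12.1, 17.8 and 14.1 RPKM in null libraries, against 8.20, 9.12, 6.46 and 10.4 RPKM in wild-type libraries. The lowest null library was close above the highest wild-type library (log2 fold change 0.64 ± 0.15, limma adjusted p = 0.0102). Of 8 endothelial markers 0 rose and 3 fell, against 13.8% and 14.6% of all tested genes. The part of these markers in the Plxnd1 value was not tested. Their summed level was 24.9 to 32.9 RPKM in null libraries and 33.4 to 37.8 RPKM in wild-type libraries. Plxnb2 fell to 34.0, 36.4, 34.0 and 36.8 RPKM in null libraries, against 42.3, 39.6, 43.7 and 45.6 RPKM in wild-type libraries (-0.27 ± 0.05, limma adjusted p = 0.00463). Plxnb1, the Sema4d receptor, stood at 32.4 ± 1.82 RPKM in the null and 32.8 ± 1.42 RPKM in the wild type, with a 95% interval of -0.14 to 0.10 for the log2 difference.

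The members that rose most in this system were lowest in wild-type library 7, the library with the least RNA of pallial neuron markers. Those markers were also higher in every null library than in every wild-type library, and their part in these rises was not tested. Over all genes, fits that left out a single library gave 1235 to 1627 higher and 1236 to 1587 lower. In the fit without wild-type library 7 there were 9 semaphorins that rose and 2 that fell, and 4 plexins or neuropilins rose and 2 fell. The log2 fold changes were then 1.34 for Plxna4, 1.18 for Nrp2, 1.08 for Sema3c, 0.99 for Sema5a, 0.86 for Sema6d, 0.79 for Sema6a and 0.52 for Plxnd1, and each was past the threshold (limma adjusted p from 3.7e-05 for Sema6a to 0.0237 for Plxnd1).

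Partners and effectors of semaphorin receptors were examined next. Of 33 such genes on the list, 29 were tested, and 11 rose and 3 fell, against 13.8% and 14.6% of all tested genes. The list was chosen with earlier results of these data known, so these counts are a description only. Nrcam, an adhesion molecule that pairs with Nrp2, was at 36.6 ± 2.40 RPKM in the null and 15.8 ± 2.80 RPKM in the wild type (log2 fold change 1.18 ± 0.11). Cntn2, an axonal adhesion molecule of the contactin family, was at 43.8 ± 2.08 RPKM in the null and 14.4 ± 4.29 RPKM in the wild type (1.58 ± 0.17). The small GTPase gene Rnd2 was at 178 ± 11.6 RPKM in the null and 61.3 ± 16.8 RPKM in the wild type (1.57 ± 0.18). The 3 falls included its relatives Rnd3, at 59.1 ± 5.49 RPKM in the null and 111 ± 3.93 RPKM in the wild type (-0.90 ± 0.07), and Rnd1, at 0.776 ± 0.289 RPKM in the null and 1.57 ± 0.146 RPKM in the wild type (-0.55 ± 0.12), which entered the test only through its wild-type level and so had to be lower to be counted. Dpysl4, a collapsin response mediator gene, fell to 26.4 ± 2.18 RPKM in the null, against 31.7 ± 0.178 RPKM in the wild type (-0.26 ± 0.06). The limma adjusted p of these 6 genes was at most 0.00758, for Dpysl4. Fyn, Chl1, Crmp1, Dpysl5, Pak1, Arhgef11, Arhgef12 and Farp1 were the other genes that rose.

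The promoters of Nrp2 and Sema3c are shown because these were the members of this system with the largest changes among those with a single RefSeq promoter window. Each line gives the 250 bases before the annotated start, 5′ to 3′ on the gene's strand, from RefSeq in GRCm38.p6, and capitals mark CG dinucleotides. Nrp2 lies at chr1:62703067-62703316 on the plus strand and holds 32 CG, and Sema3c at chr5:17574566-17574815 on the plus strand and holds 39, beside a median of 6 over all 32851 windows of this length.
Nrp2: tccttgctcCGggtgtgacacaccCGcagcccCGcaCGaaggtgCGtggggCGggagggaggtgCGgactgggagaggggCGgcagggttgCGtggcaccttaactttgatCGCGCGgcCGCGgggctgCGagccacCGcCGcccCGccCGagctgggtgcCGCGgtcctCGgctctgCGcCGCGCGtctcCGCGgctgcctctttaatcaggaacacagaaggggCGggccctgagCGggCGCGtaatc
Sema3c: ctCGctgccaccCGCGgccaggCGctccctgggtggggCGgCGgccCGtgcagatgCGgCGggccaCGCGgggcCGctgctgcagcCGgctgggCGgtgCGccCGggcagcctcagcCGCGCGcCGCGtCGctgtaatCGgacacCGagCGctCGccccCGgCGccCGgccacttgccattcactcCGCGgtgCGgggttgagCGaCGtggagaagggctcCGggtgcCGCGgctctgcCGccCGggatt

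Eph receptors split, and the 2 largest changes were falls. Of 9 tested receptor genes 4 rose (Epha7, Ephb6, Ephb3 and Epha5) and 3 fell (Ephb1, Epha4 and Ephb4), and 3 of 7 ephrins rose. Over all tested genes 13.8% rose and 14.6% fell. Summed receptor RNA was 154 to 180 RPKM in null libraries and 192 to 209 RPKM in wild-type libraries. Summed ephrin RNA was instead 164 to 175 RPKM in null libraries and 144 to 158 RPKM in wild-type libraries. Each sum covers the members only, and any ephrin or Eph receptor outside them is not in it.

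Ephb1, a receptor of the B ephrins with known roles in axon guidance, had the largest fall of all tested members. It had 10.5, 8.94, 10.5 and 12.1 RPKM in null libraries, against 26.9, 26.5, 27.3 and 24.3 RPKM in wild-type libraries. The wild-type mean was 2.50 times the null mean and the ranges were far apart; the log2 fold change was -1.25 ± 0.08 (limma adjusted p = 5.41e-06). Within libraries 5, 6, 1 and 2 it was -1.37 and within libraries 11, 12, 7 and 8 it was -1.13. Epha4, which binds ephrins of both classes, had 31.1, 33.1, 36.7 and 38.3 RPKM in null libraries, against 55.7, 63.4, 69.1 and 64.3 RPKM in wild-type libraries. Again no library crossed over, and the log2 fold change was -0.84 ± 0.08 (limma adjusted p = 7.81e-05). GABAergic markers fell alongside these receptors in every null library, and their part in the result was not tested.

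The promoters of these receptors are shown as the pair with the largest changes in this system and a single RefSeq window, in the same format. Ephb1 lies at chr9:102354694-102354943 on the minus strand with 10 CG, and Epha4 at chr1:77515089-77515338 on the minus strand with 14. The Epha4 gene is annotated from 77367182 to 77515107, so the last bases of its line lie within that span.
Ephb1: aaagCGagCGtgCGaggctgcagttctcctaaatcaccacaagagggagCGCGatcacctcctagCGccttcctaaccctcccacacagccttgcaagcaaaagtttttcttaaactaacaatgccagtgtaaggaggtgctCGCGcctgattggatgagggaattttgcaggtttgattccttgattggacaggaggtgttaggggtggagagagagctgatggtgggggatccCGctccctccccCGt
Epha4: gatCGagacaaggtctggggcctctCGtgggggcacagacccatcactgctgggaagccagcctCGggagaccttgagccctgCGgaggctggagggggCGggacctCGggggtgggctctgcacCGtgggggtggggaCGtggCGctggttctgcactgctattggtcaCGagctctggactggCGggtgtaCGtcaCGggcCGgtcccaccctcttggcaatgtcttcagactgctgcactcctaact

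Motifs were searched on both strands in windows from 250 bases before to 50 after the start. The motifs were TAATTA, a homeodomain core, and CAGATG, an E-box bound by neurogenins. A match of one cannot overlap a match of the other. RefSeq windows were matched for 40 of the 46 members, 54 windows in all. TAATTA was in 2 of them and in 5.29% of all 32851 windows, and CAGATG in 3 and in 17.2%. Among the promoters printed, only that of Sema3c held one, CAGATG at 200 bases before the start. Of 7 members that fell and had a window, 0 held either motif in it. Of 17 that rose, TAATTA was in Epha5 and CAGATG in Efna3 and Sema3c. A match is a description of these letters and not a binding site.

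Among the A receptors that did not fall, Epha7 and Epha5 were higher in the null and Epha3 did not pass the threshold. Epha7, whose ligands are A ephrins, had 6.89, 7.90, 7.37 and 6.87 RPKM in null libraries, against 4.01, 4.35, 2.75 and 3.97 RPKM in wild-type libraries. The genotypes were well apart (log2 fold change 0.80 ± 0.10, limma adjusted p = 0.000431). Epha5, another A ephrin receptor, had 27.5, 31.4, 31.3 and 28.0 RPKM in null libraries and 22.5, 25.8, 22.5 and 26.1 RPKM in wild-type libraries (0.28 ± 0.07, limma adjusted p = 0.0134). Epha3 stood at 52.9 ± 6.34 RPKM in the null and 54.2 ± 2.82 RPKM in the wild type, a log2 difference of -0.04 with a 95% interval of -0.22 to 0.14. It was thereby the most abundant Eph receptor of the null libraries, whereas Epha4 was in 4 of 4 wild-type libraries.

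The make-up of the A receptors followed from these changes. Epha4 held 26.0 to 30.6% of summed A receptor RPKM in null libraries and 41.1 to 46.6% in wild-type libraries. Epha5 held 22.4 to 24.7% in the null and 15.2 to 17.5% in the wild type, and Epha7 held 5.36 to 6.21% in the null and 1.85 to 2.96% in the wild type. Epha2 and Epha8 were low. Epha2 was at 0.801 ± 0.0490 RPKM in the null and 0.874 ± 0.0238 RPKM in the wild type, and Epha8 at 0.270, 0.261, 0.154 and 0.238 RPKM in null libraries and 0.454, 0.543, 0.510 and 0.277 RPKM in wild-type libraries. The Epha8 ranges almost touched; in the fit of all listed genes its adjusted p was 0.0791, while the authors' deposited table gave an FDR of 0.00318 with a log2 fold change of -0.94.

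Among the B receptors, Ephb6 and Ephb3 rose as Ephb1 fell. Ephb6, a receptor without kinase activity, had 7.33, 6.46, 6.78 and 6.57 RPKM in null libraries, against 4.47, 4.48, 3.07 and 4.13 RPKM in wild-type libraries. Each null library was above each wild-type library (log2 fold change 0.64 ± 0.09, limma adjusted p = 0.000922). Ephb3 had 4.996, 5.05, 5.67 and 5.36 RPKM in null libraries, against 3.59, 3.60, 3.10 and 4.10 RPKM in wild-type libraries (0.45 ± 0.07, limma adjusted p = 0.00157). Ephb2 stood at 13.4 ± 0.361 RPKM in the null and 14.5 ± 0.350 RPKM in the wild type; the ranges did not overlap, but the difference of -0.11 on the log2 scale did not pass (limma adjusted p = 0.0788).

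Ephb4, known best from veins as the partner of Efnb2, had 5.36, 5.496, 6.22 and 6.05 RPKM in null libraries, against 6.57, 6.61, 7.30 and 6.54 RPKM in wild-type libraries. Its log2 fold change of -0.19 ± 0.06 (limma adjusted p = 0.0367) was no longer past the threshold without any 1 of libraries 1, 2, 5, 6, 7 or 8. The summed level of endothelial markers was lower in the null too, as given for Plxnd1, with 3 of 8 markers called lower. Their part in the Ephb4 value was not tested. In the B class Ephb1 made up 22.9 to 27.5% of summed RPKM in null libraries and 45.7 to 49.4% in wild-type libraries, Ephb6 15.0 to 17.7% in the null and 5.55 to 7.98% in the wild type, and Ephb3 12.1 to 13.3% in the null and 5.62 to 7.72% in the wild type. The ratio of Ephb1 to Ephb2 RPKM was 0.69 to 0.87 in null libraries and 1.72 to 1.89 in wild-type libraries.

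As in the other system, wild-type library 7 was lowest for the receptors and ephrins that rose, other than Epha5 and Efnb2. Without it, beside the counts over all genes given for the other system, 4 Eph receptors rose, 2 fell and 2 ephrins rose. Ephb4 and Efnb3 were no longer past the threshold in that fit. The log2 fold changes were then 0.69 for Epha7, 0.54 for Ephb6 and 0.40 for Ephb3, with limma adjusted p of 0.000104, 0.000357 and 0.00339. For the falls of Ephb1 and Epha4 they were -1.23 and -0.80, with adjusted p of 1.8e-05 and 0.000195.

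**Figure D3:**
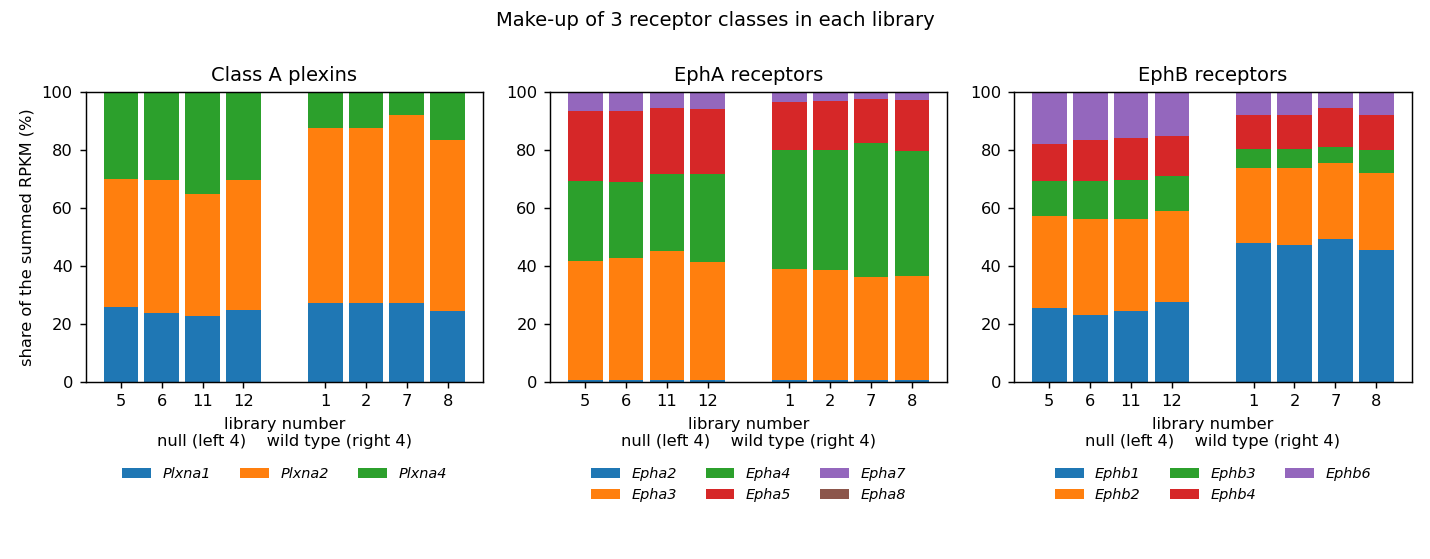
Share of each gene in the summed RPKM of class A plexins, A receptors and B receptors (percent, stacked to 100), with the null libraries on the left and the wild-type libraries on the right of each panel. Each sum covers the members only, which for class A plexins are Plxna1, Plxna2 and Plxna4. Plxna4 takes 29.8 to 35.1% in null libraries and 7.86 to 16.4% in wild-type libraries, and the bands of Epha4 and Ephb1 are narrower in the null.

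Ephrin ligands rose or did not pass, and 0 of 7 fell, beside 14.6% of all tested genes that fell. Efnb2, the most abundant member of either system and a transmembrane ligand of B receptors and Epha4, had 99.2, 101, 93.5 and 94.2 RPKM in null libraries, against 87.4, 82.4, 83.9 and 83.5 RPKM in wild-type libraries. The genotypes did not overlap, although the change was small (log2 fold change 0.20 ± 0.05, limma adjusted p = 0.00936). Efnb3, the other B ephrin among the members, had 33.2, 28.9, 29.6 and 30.7 RPKM in null libraries, against 28.8, 24.8, 18.6 and 21.2 RPKM in wild-type libraries. Null library 6 and wild-type library 1 were almost equal, and the call (0.39 ± 0.11, limma adjusted p = 0.0261) was lost without any 1 of libraries 5, 7, 8 or 12.

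Of the lipid-anchored A ephrins, Efna3 was the one that changed. It had 5.60, 4.46, 4.84 and 5.29 RPKM in null libraries, against 3.68, 3.12, 1.75 and 2.74 RPKM in wild-type libraries, with no overlap (log2 fold change 0.68 ± 0.14, limma adjusted p = 0.00586; 0.54 without library 7). Efna2 stood at 19.5 ± 1.24 RPKM in the null and 20.8 ± 1.69 RPKM in the wild type, and Efna5 at 9.85 ± 1.68 RPKM in the null and 8.77 ± 0.838 RPKM in the wild type. Efna4 stood at 6.93 ± 1.14 RPKM in the null and 6.47 ± 0.551 RPKM in the wild type, and Efna1 at 1.82 ± 0.213 RPKM in the null and 1.55 ± 0.301 RPKM in the wild type. These 4 overlapped between genotypes (limma adjusted p from 0.291 for Efna1 to 0.618 for Efna4). Efna1, Efna3 and Efna4 are neighbours on chromosome 3, between 89271730 and 89338028 in GRCm38, and only Efna3 of them passed. The order of the mean levels was the same in both genotypes: Efnb2, Efnb3, Efna2, Efna5, Efna4, Efna3 and Efna1.

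**Figure D4:**
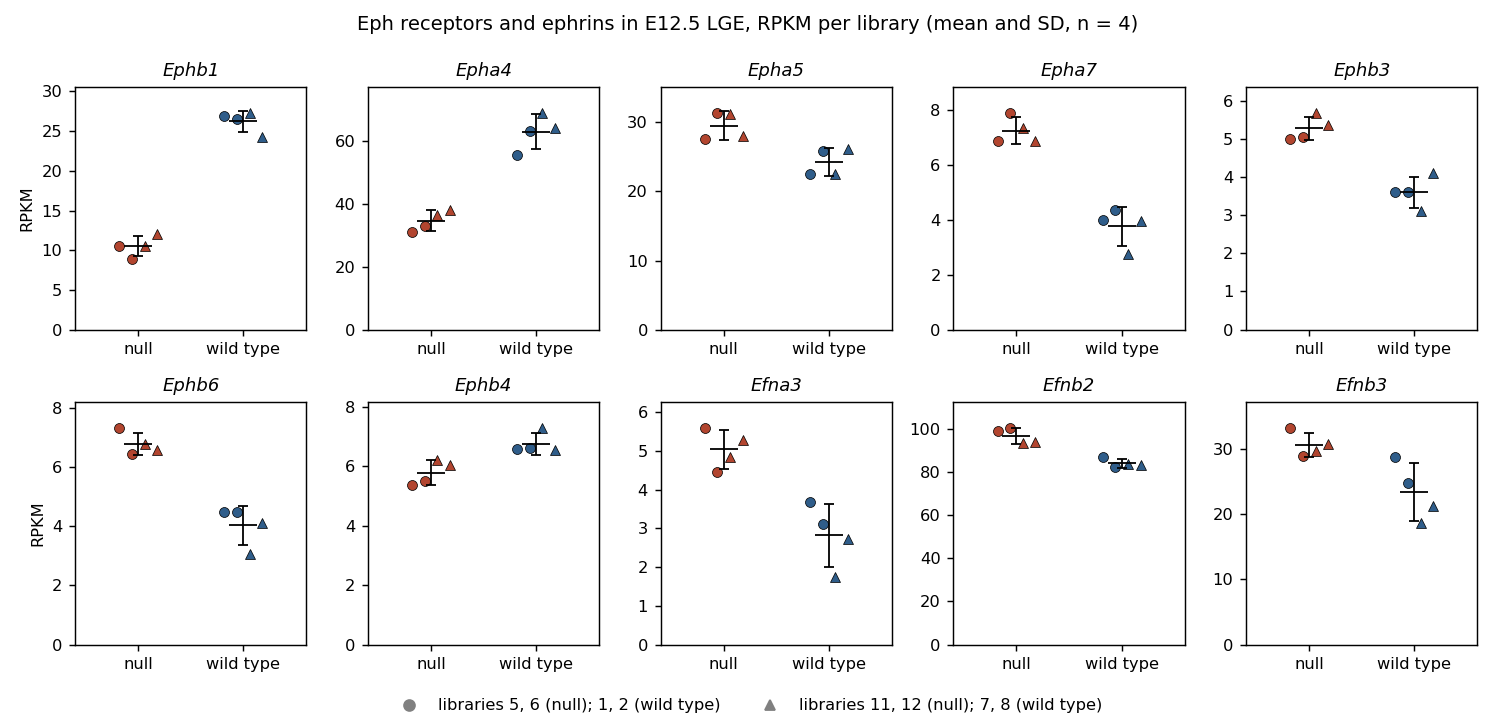
RPKM of 7 Eph receptors and 3 ephrins in each library, null at the left and wild type at the right of each panel; points are libraries, with circles and triangles for the 2 sets of column numbers, and bars are the mean and SD (n = 4 each). Ephb1 and Epha4 sit lower in all null libraries, and in Efnb3 null library 6 (28.9 RPKM) and wild-type library 1 (28.8 RPKM) nearly touch.

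Partners and effectors of Eph receptors and ephrins were called at a share near the background. Of 28 listed genes 26 were tested, with 5 higher and 3 lower in the null, against 13.8% and 14.6% of all tested genes. This list was also chosen with earlier results of these data known. Grip1, a scaffold that binds the tail of B ephrins, was at 5.42 ± 0.206 RPKM in the null and 8.09 ± 0.486 RPKM in the wild type (log2 fold change -0.50 ± 0.05). The exchange factor Vav2 (10.3 ± 0.719 RPKM in the null, 12.8 ± 0.345 RPKM in the wild type; -0.29 ± 0.05) and the Eph adaptor Anks1 (12.4 ± 0.923 RPKM in the null, 16.05 ± 1.20 RPKM in the wild type; -0.35 ± 0.07) fell as well. Kalrn, an exchange factor for small GTPases, was at 12.03 ± 0.361 RPKM in the null and 8.49 ± 0.658 RPKM in the wild type (0.46 ± 0.06). Vav3, a relative of Vav2, rose to 3.01 ± 0.349 RPKM in the null, against 1.81 ± 0.130 RPKM in the wild type (0.51 ± 0.08), and Ptpro, a phosphatase that acts on Eph receptors, was at 13.7 ± 2.03 RPKM in the null and 8.80 ± 1.22 RPKM in the wild type (0.58 ± 0.11). The limma adjusted p of these 6 genes ran up to 0.00397, for Ptpro. Nck2 and Afdn were the others that rose.

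Some members share annotated exon sequence with a gene on the opposite strand in GENCODE M21: Sema4c, Plxna1, Plxna4, Plxnb1, Ephb1, Ephb4, Efna3 and Efna4. The libraries were stranded, but no source used here says whether counting used the strand, and reads of such a pair may be mixed. Sema4a, Nrp1 and Plxnc1 share exon sequence with Mir7011, Mir1903 and Gm48718 on the same strand, where the strand cannot separate the reads.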

How the data were processed

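Polyadenylated RNA of 8 dissected LGE samples was made into dUTP-stranded libraries with 9 PCR cycles and read as single ends of 51 bp, per the labels' protocols. The authors used STAR, featureCounts and edgeR with the build mm10, per the submitters' processing notes; their versions, the annotation and the strand setting are not given there. Deposited by the authors were RPKM per library, a log2 fold change, average log2 CPM, p-value and FDR. Columns were named WT or Germline with numbers that no label mentions, so libraries were assigned to genotypes only, with Germline read as null from the series title. In their table a positive log2 fold change means higher in the null (checked on 1782 genes). Every listed gene reached 0.5 RPKM in a library, so genes lower than that in all libraries are outside all counts. X-linked family members were not analysed here.

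Genotype was tested on log2(RPKM + 1) by limma (3.58.1, R 4.3.3; variance trended on intensity), two-sided, with Benjamini-Hochberg adjustment over the 11395 genes with a mean of at least 1 RPKM in either genotype; 1448 were not tested. The threshold was an adjusted p of 0.05. The pseudocount understates changes of low genes. The method was also run on simulated reads, with the same spread setting for all genes and no sets of column numbers. That run does not measure the error rate in these data. The RPKM steps gave whole reads for 100% of genes (tolerance 1e-06 of a read, wider for high counts), which set the depth and entered 1 alternative (limma with voom, 1630 genes higher and 1688 lower). Pairs of libraries of 1 genotype differed by more than sampling noise (chi-square per degree of freedom 3.66 to 12.6). All members are named, with full values for those past the threshold; of each partner list the 3 rises and 3 falls with the smallest adjusted p are named, with the other calls by name. Members and lists were chosen with earlier results of these data known. Promoters were read from RefSeq windows. Alternatives changed the pseudocount, filter, scaling, fit and libraries.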

Additional observations from a re-analysis of the deposited data

Results flagged for a closer look

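In 3 of 94 groups of 4 libraries (47 genes in each genotype), 1 library lay far from the other 3 relative to the group's range; chance flags about 1 group in 20. Sema4a was at 6.22 RPKM in null library 5, against 4.87 to 5.08 RPKM in the other null libraries. Plxna4 was at 34.0 RPKM in null library 11, against 26.9 to 27.6 RPKM in the other null libraries, and its log2 fold change without that library was 1.45. Ephb4 was at 7.30 RPKM in wild-type library 7, against 6.54 to 6.61 RPKM in the other wild-type libraries, and without that library its log2 fold change of -0.16 did not pass (limma adjusted p = 0.0993).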

How the results depend on the processing

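Under 20 alternatives, 0 of the 27 members past the threshold changed direction and 13 kept their call in every alternative that tested them. Another 11 lost it only where libraries were fitted 4 at a time (limma adjusted p 0.0524 to 0.158). Sema3a (0.0501 to 0.261 where lost), Ephb4 (0.0523 to 0.196) and Efnb3 (0.0530 to 0.194) also lost it without single libraries. Within libraries 1, 2, 5 and 6 alone, 753 genes were higher and 1196 were lower over all genes. In that fit 5 semaphorins were higher and 0 lower, and 0 plexins or neuropilins were lower. Of the ephrins 0 were higher, and of the Eph-ephrin partners 3 were higher. Within libraries 7, 8, 11 and 12 alone, 1052 genes were lower and 1 semaphorin was lower. That number was also 1 without a filter and under trimmed-mean or median-of-ratios scaling, and 1 to 2 when single libraries were left out. Fits of 4 libraries have fewer samples. Among members that did not pass, the sign turned for Plxnb1 (0.041) and Efna4 (-0.11) within libraries 1, 2, 5 and 6, and for Epha3 (0.068) and Sema5b (-0.0047) within libraries 7, 8, 11 and 12. Leaving out single libraries gave -0.048 to 0.011 for Plxnb1, -0.11 to 0.025 for Epha3 and -6.4e-05 to 0.075 for Sema5b; the cause was not tested. Counts of plexin, Eph and ephrin calls were within 1.5 times under every other alternative. A term for the genotype by column-number-set interaction passed for 0 members and 2 genes over all (limma; smallest adjusted p of a member 0.205). No paired analysis was possible because the columns do not carry the replicate numbers of the labels. Members under 1 RPKM are limited by depth, with as few as 17 reads in a library.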
